A study of Sus scrofa with 16 samples.

Results

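The comparison examined here sets the follicular ovary against the luteal ovary in sows of low fecundity. Group LL held 4 Canadian Large White sows sampled on day 14 after estrus, in the luteal phase, and group FL held 4 other sows of the same low-fecundity class sampled on day 20, in the follicular phase. Group LH (day 14) and group FH (day 20) held 4 high-fecundity sows each and entered the fit so that the spread between animals rested on all 16 libraries. The sows were unrelated and without treatment, each library came from 1 animal, and whole ovarian tissue was sequenced after removal of ribosomal RNA. A transcript was included when its FPKM (a level per length, which corrects fragment numbers for library depth) reached 0.5 in at least 4 of the 8 LL and FL libraries, which 6076 of the 27370 listed transcripts did. A gene symbol could be paired with 1513 of the 6076, or 24.9%, and the other transcripts carry only their Ensembl identifiers. Where 4 values of a group are given, they follow the replicate numbers from 1 to 4.

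In the luteal phase the ovary holds corpora lutea, glands that form from ovulated follicles and make progesterone from cholesterol. Prostaglandin F2-alpha acts on its receptor in luteal cells and ends this phase, after which the vessels and matrix of the gland break down and a new set of follicles grows. The ovary of the follicular phase is dominated by granulosa and theca cells, which make estrogens under pituitary hormones.

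The depth of the LL and FL libraries bears on every value that follows. Fragments assigned to transcripts, recovered from the steps between low FPKM values, numbered 189000 to 205000 in LL and 218000 to 305000 in FL, and transcripts at 0.5 FPKM or more numbered 4440 to 6081 in LL and 7215 to 9660 in FL. Neither range overlapped (exact two-sided permutation test, p = 0.0286 each, the smallest p that 4 against 4 can give, and adjusted p = 0.0286 over the 4 library measures tested). The 10 most abundant transcripts took 45.9% to 61.5% of all FPKM in LL and 38.8% to 42.9% in FL, also without overlap. FPKM divides by the fragments of a library, so a larger share of fragments for a few transcripts lowers the values of all others. The share of FPKM given here is not that share, since it weighs short transcripts more. The part of this in the results was not tested. On a transcript of 2000 nt a single fragment was worth 1.85 to 3.03 FPKM in these 8 libraries. The recovered fragment numbers are a very small part of the clean reads that the paper reports, most of which aligned to the genome. They are therefore not the depth of sequencing, and the reason for the gap was not tested. In whole tissue, fewer cells of a type and less RNA per cell cannot be told apart.

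Which strand the values count could not be settled. The libraries kept the strand of the RNA, and the strand setting of the program that made the FPKM values is not given in the sources used here. ND6, a subunit of respiratory complex I and the only protein-coding gene on the light strand of the mitochondrial genome, exceeded ND4, a subunit read from the heavy strand, by 15.8-fold to 67.2-fold in each of the 8 libraries. Of 27 transcripts that cells of all kinds use, 17 had a mean under 10 FPKM over the 8 libraries and 21 were listed at 0 in at least 1 of them. COL1A2, a chain of the abundant collagen I, averaged 2.12 FPKM in LL and 2.27 in FL. Where a gene overlaps or adjoins another in the RefSeq annotation of Sscrofa11.1, that neighbour is therefore named beside it, since their reads cannot be told apart here. Ovarian markers with a symbol went both ways and do not settle the labels. GATA4, a transcription factor of granulosa and theca cells, averaged 0.738 FPKM in LL and 5.47 in FL (limma adjusted p = 0.144), on 10 fragments in FL. GATA6 averaged 1.81 FPKM in LL and 3.38 in FL (adjusted p = 0.415). In reverse, HAPLN1, listed with the same cells, averaged 6.02 FPKM in LL and was at 0 throughout FL. FOXL2, which marks granulosa cells, was above 0 only in LL4 among the 8 libraries, at 12.1 FPKM. The other defining genes of steroid-making cells, such as STAR, CYP11A1, CYP19A1, FSHR and LHCGR, had no paired transcript and were not analysed here.

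Of the 6076 transcripts tested, 395 (6.5%) differed between FL and LL at an adjusted p under 0.05 (limma, Benjamini-Hochberg adjustment over all 6076), 325 (5.35%) higher and 70 (1.15%) lower in FL. Among the 1513 tested transcripts with a symbol, 117 were called higher and 30 lower, larger parts than among all 6076. Symbols were taken from the study's lists of transcripts that differed in LH vs LL or FH vs FL and of predicted microRNA targets. Having a symbol thus depends in part on the LL and FL values themselves, and the larger parts cannot be read as a result about named genes. Members of the gene lists below all have a symbol, so the shares of all transcripts set beside them are a low background in both directions. The same background applies to lists with 1 call or none. The excess of higher calls depended on the scaling. The median log2 fold change of all transcripts tested was 0.82, and measured against that median 294 transcripts passed, 50 higher and 244 lower, a share higher of 17% against 82.3% on the deposited scale. Median-ratio scaling gave 142 higher and 115 lower, and quantile normalization 80 higher and 102 lower. Measuring against a positive median moves every change down by the same amount. That all 70 transcripts called lower on the deposited scale stayed so follows largely from this and is no sign of their strength. Of the 325 called higher, 50 were still called higher. With the study's looser criterion (log2 fold change of 1 or more in size, p under 0.05 without adjustment), 1482 transcripts (24.4%) passed, 1277 (21%) higher and 205 (3.37%) lower. LL and FL values were fully apart for 1059 transcripts (17.4%), 873 (14.4%) higher and 186 (3.06%) lower in FL. The filter itself was uneven. It admitted 1442 transcripts through FL with at most 1 LL library at the minimum, against 146 in the same way through LL. At the minimum in 4 FL and no LL library were 240, and 21 in the reverse. The median change and the counts in each direction include these transcripts, and the part of the filter in them was not tested. The count of adjusted calls also rested on single libraries. It was 244, 89 and 190 without LL1, LL2 or LL3, and 123, 67, 80 and 75 without FL1, FL2, FL3 or FL4, in part because a transcript at the minimum in 4 libraries of a group alone no longer passed the filter. Without LH2, a library outside the contrast that adds to the estimated spread, it was 618.

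The calls in the 2 directions differed in the number of fragments behind them. Transcripts called lower rested on a median of 50.8 fragments per LL library, and 26 of the 70 on fewer than 10. Those called higher rested on a median of 9.48 fragments per FL library, and 164 of the 325 on fewer than 10. A group was listed at 0 throughout for 112 of the transcripts called higher (LL) and 18 of those called lower (FL), which leaves 213 and 52 with a value above 0 on both sides. Among transcripts with a mean of 100 FPKM or more, where counting error is least, 50 of 438 were called higher and 33 lower. Below 10 FPKM, 122 of 3701 were called higher and 11 lower.

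**Figure D1:**
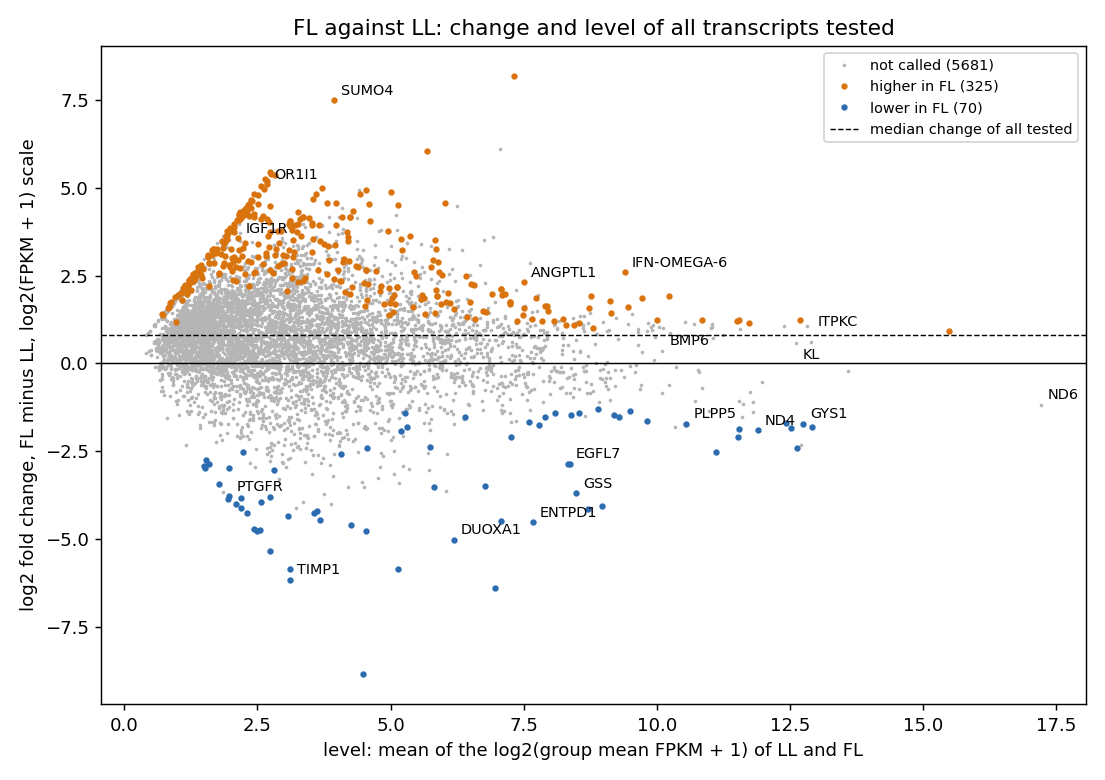
Change against level for the 6076 transcripts tested, with the mean log2 level of LL and FL on the horizontal axis and the log2 fold change of FL minus LL on the vertical axis. Orange points (325) were called higher and blue points (70) lower in FL, grey points were not called, and the dashed line marks the median change of 0.82, so that the cloud as a whole lies above 0.

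Glutathione synthetase, GSS, had the smallest p among the transcripts that fell. It joins glycine to gamma-glutamylcysteine in the last step of glutathione synthesis. GSS (ENSSSCT00000007972) stood at 1224, 1621, 1181 and 1118 FPKM in LL and at 118, 85.6, 107 and 81.4 FPKM in FL. The lowest luteal library lay far above the highest follicular one, and the log2 fold change was -3.70 (SE 0.47, limma adjusted p = 0.00033), on 4435 fragments in LL and 441 in FL. ACSS2, an acetyl-CoA synthetase whose gene adjoins GSS, was listed at 82.2 ± 11.98 FPKM in LL and 68.7 ± 12.3 in FL (SD, n = 4 each; adjusted p = 0.622).

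ENTPD1, the ectonucleotidase CD39 that cleaves extracellular ATP and ADP, fell as well. Its values were 475, 1483, 664 and 1328 FPKM in LL and 50.7, 31.2, 62.6 and 19.6 FPKM in FL. The lowest LL library, at 475 FPKM, lay far above the highest FL library, and the log2 fold change was -4.53 (SE 0.69, adjusted p = 0.00185). P2RY14 and P2RY12, receptors for UDP-sugars and for ADP, both rose. P2RY14 was measured at 40.3, 26.5, 28.4 and 38.3 FPKM in LL and at 127, 189, 134 and 392 FPKM in FL (log2 fold change 2.49, SE 0.47, adjusted p = 0.009). P2RY12, named after its values were seen, ran from 0 to 21.1 FPKM in LL and from 25.0 to 268 FPKM in FL (log2 fold change 4.51, SE 0.93, adjusted p = 0.0117), and its adjusted p was 0.0529 without FL4. Both receptor genes overlap MED12L. TCTN3 adjoins ENTPD1.

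An oxidase and an oxidase maturation factor were called lower in FL. DUOX2, a dual oxidase that releases hydrogen peroxide, was listed at 46.4, 36.5, 11.3 and 6.55 FPKM in LL and at 0.58, 0, 0 and 0.81 FPKM in FL (log2 fold change -3.95, SE 0.87, adjusted p = 0.0171). DUOXA1, the maturation factor of the oxidase DUOX1, was named after its values were seen and stood at 442, 383, 711 and 128 FPKM in LL and at 14.5, 3.3, 8.67 and 20.3 FPKM in FL (log2 fold change -5.03, SE 1.19, adjusted p = 0.0232). Neither gene's groups overlapped, and both belong to a single cluster of oxidase genes and maturation factors. DUOX1 itself did not pass the filter and averaged 1.45 FPKM in LL and 0.858 in FL, and NOX4, another peroxide-forming oxidase, was not called (adjusted p = 0.458). DUOX2 lost its call without LL2, FL2 or FL3, and DUOXA1 under 7 of 18 alternatives. Of the 11 tested redox and coenzyme Q genes, GSS and DUOX2 were called lower and none higher, beside 1.15% and 5.35% of all transcripts. The list's median log2 fold change was 0.43, below the 0.82 of all transcripts, and COQ10A, a coenzyme Q binding protein whose gene overlaps CS, averaged 52.6 ± 22.4 FPKM in LL and 19.2 ± 14.95 in FL with overlap (adjusted p = 0.274).

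The prostaglandin F receptor was called lower. PTGFR, through which prostaglandin F2-alpha ends the luteal phase, was listed at 14.6, 23.1, 5.74 and 13.4 FPKM in LL and at 0 in every FL library (adjusted p = 0.0124), on 31 fragments in LL. NR4A3, an immediate-early nuclear receptor, was the reverse, at 0 in every LL library and at 1.35, 2.65, 4.07 and 4.11 FPKM in FL (adjusted p = 0.0374), on 14 fragments. EDNRA, an endothelin receptor, was likewise at 0 throughout LL and at 2.08 to 5.7 FPKM in FL (adjusted p = 0.0438), on 11 fragments. In all, 1 of the 11 tested members of the list was called lower and 2 higher, beside 1.15% and 5.35% of all transcripts, with a median log2 fold change of 0.54 beside 0.82. PTGFR kept its call in each of the 14 alternatives in which it could be tested. NR4A3 kept it in 5 of 14 and EDNRA in 6 of 14.

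Matrix proteases and their inhibitors moved in both directions, with 3 of 22 tested members called lower and 2 higher, beside 1.15% and 5.35% of all transcripts, and a median log2 fold change of 0.38 beside 0.82. TIMP1, an inhibitor of matrix metalloproteinases, was listed at 50.9, 109, 69.7 and 63.5 FPKM in LL and at 0 in the whole of FL (adjusted p = 0.00522), on 39 fragments in LL. The gene of TIMP1 overlaps SYN1. CTSB, the lysosomal protease cathepsin B, was at 67.9, 23.9, 20.0 and 22.9 FPKM in LL and at 0 in FL except for 4.21 FPKM in FL3 (log2 fold change -4.33, SE 0.96, adjusted p = 0.0178). Its call was lost without FL2 or FL4, and the next gene is FDFT1, a squalene synthase. TIMP2, a second inhibitor of the family, ran from 19.1 to 35.5 FPKM in LL and from 0 to 15.2 FPKM in FL without overlap, but missed the threshold (adjusted p = 0.116).

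ADAMDEC1, a metalloprotease-like protein of macrophages, fell from 9.9 ± 5.85 FPKM in LL to 0.4 ± 0.8 in FL (SD, n = 4 each; adjusted p = 0.0253), on 19 fragments in LL and 1 in FL. ADAMTS2, which trims procollagen, rose from 1.33 ± 0.364 to 9.97 ± 2.83 FPKM (log2 fold change 2.21, SE 0.61, adjusted p = 0.0391). ADAMTS9, a versican-cleaving protease, rose from 3.15 ± 1.78 to 21.2 ± 10.97 FPKM (log2 fold change 2.31, SE 0.67, adjusted p = 0.0477), where FL4 at 6.29 FPKM lay just above LL4 at 5.61. Both ADAMTS calls held in 5 of 18 alternatives. None of the 20 tested collagens and matrix glycoproteins was called, and their median log2 fold change was 0.31. COL3A1, a fibrillar collagen, was at 11.2 to 19.5 FPKM in LL and 0.87 to 6.09 FPKM in FL without overlap (adjusted p = 0.106).

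Genes of blood and lymph vessels gave calls in both directions. EGFL7, secreted by endothelial cells and host of the microRNA MIR126, fell from 945, 1213, 648 and 429 FPKM in LL to 168, 241.6, 47.9 and 57.9 FPKM in FL (log2 fold change -2.85, SE 0.79, adjusted p = 0.0397), without overlap. ANGPTL1, an angiopoietin-like protein whose gene overlaps RALGPS2, rose from 53.1, 42.8, 132 and 102 FPKM in LL to 327, 618, 314 and 308 FPKM in FL (log2 fold change 2.31, SE 0.45, adjusted p = 0.0101). HIF1A, the oxygen-regulated transcription factor, was at 0 in LL except for 1.88 FPKM in LL2 and at 3.42 to 9 FPKM in FL (adjusted p = 0.0463). EGLN1, the prolyl hydroxylase that marks HIF1A for degradation, was at 0 in LL except for 2.37 FPKM in LL3 and at 4.38 to 12.3 FPKM in FL (adjusted p = 0.0483). HIF1A and EGLN1 rested on 19 and 21 fragments in FL and held in 5 and 7 of 18 alternatives. EGFL7 held in 8 of 18 and was lost with the replicate block, without the filter, without each FL library and without LL1, LL2 or LL3. The list had 17 tested members, 3 called higher (5.35% of all transcripts) and 1 lower (1.15%), and a median log2 fold change of 0.92. Endothelial genes of the list ranged widely in level. PECAM1 averaged 0.495 FPKM in LL and 0 in FL and TIE1 0.427 and 0.36 FPKM, whereas RASIP1, a regulator of vessel tube formation, averaged 45.6 ± 13.4 FPKM in LL and 39.8 ± 20.8 in FL (adjusted p = 0.679) and STAB1, a scavenger receptor, 41.8 ± 15.9 and 26.0 ± 12.7 FPKM (adjusted p = 0.38).

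Steroid and cholesterol genes gave a single call. CYP21A2, the steroid 21-hydroxylase of adrenal corticoid synthesis, was at 29.9, 38.1, 31.5 and 66.5 FPKM in LL and at 110, 212, 137 and 388 FPKM in FL (log2 fold change 2.22, SE 0.44, adjusted p = 0.0101). The groups did not overlap, although the gene overlaps TNXB, and measured against the median change its adjusted p was 0.0775. It was the only one of the 8 tested members of its list to be called, beside 5.35% of all transcripts called higher and 1.15% lower. The list's median log2 fold change was 1.12. None of 5 tested granulosa and theca genes (median 0.95) and none of 3 tested progesterone receptors (median -0.21) was called. STARD3, which moves cholesterol from late endosomes, averaged 22.7 ± 21.7 FPKM in LL and 49.7 ± 8.69 in FL (adjusted p = 0.113), and LL1 at 54.5 FPKM lay among the FL values.

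None of the 8 tested genes of cholesterol synthesis was called, and their median log2 fold change was -0.25, or -1.07 relative to all transcripts. MSMO1, a sterol demethylating oxidase, ran from 6 to 27.9 FPKM in LL and from 0 to 7.56 FPKM in FL (adjusted p = 0.135). FDPS, which makes farnesyl diphosphate, ran from 3.74 to 8.02 FPKM in LL and from 0 to 3.35 FPKM in FL (adjusted p = 0.119).

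Growth factor pathways held calls in 1 direction. TGFB3, a transforming growth factor whose gene overlaps IFT43, rose from 3, 0, 1.57 and 0 FPKM in LL to 10.7, 13.3, 20.3 and 12.3 FPKM in FL (log2 fold change 3.04, SE 0.83, adjusted p = 0.0382). TGFBR1, the type I receptor for this ligand, was at 0 throughout LL and at 6.57, 10.4, 2.88 and 15.1 FPKM in FL (adjusted p = 0.0268), on 46 fragments. GDF11, a ligand of the activin receptors, rose from 18.3 ± 5.11 to 49.3 ± 13.4 FPKM (log2 fold change 1.38, SE 0.39, adjusted p = 0.0456). With 15 members tested, 3 were called higher and none lower, against backgrounds of 5.35% and 1.15%, and the median log2 fold change of 0.52 lay below that of all transcripts. All 3 calls were lost relative to the median change, and they held in 6 of 18 alternatives for TGFB3, 9 of 14 for TGFBR1 and 4 of 18 for GDF11. The most abundant member, BMP6, overlapped at 629 to 1326 FPKM in LL and 701 to 1759 FPKM in FL (adjusted p = 0.468). MSTN, which restrains muscle growth, ran from 16.2 to 74.5 FPKM in LL and from 0 to 9.08 FPKM in FL (adjusted p = 0.0539).

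IGF1R, the receptor for insulin-like growth factors, was at 0 throughout LL and at 2.49, 18.8, 4.81 and 47.6 FPKM in FL (adjusted p = 0.0265), on 218 fragments, with FL2 and FL4 highest, and its call held in 9 of 14 alternatives. It was the only one of 12 tested IGF and growth hormone genes to be called, beside 5.35% of all transcripts called higher and 1.15% lower. The list's median log2 fold change was 0.22. TSC2, which inhibits growth signalling, stood at 146 ± 15.2 FPKM in LL and 174 ± 46.3 in FL (adjusted p = 0.681), and PIK3CA, a catalytic kinase subunit, ranged from 2.45 to 379 FPKM within LL alone. Of 12 tested Wnt and Notch genes, DAAM2, a formin of Wnt signalling, was called higher, at 0 throughout LL and at 1.33 to 10.8 FPKM in FL (adjusted p = 0.0298, held in 8 of 14 alternatives), and none was called lower. The median of the 12 was 0.81, and the shares of all transcripts called were again 5.35% higher and 1.15% lower.

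**Figure D2:**
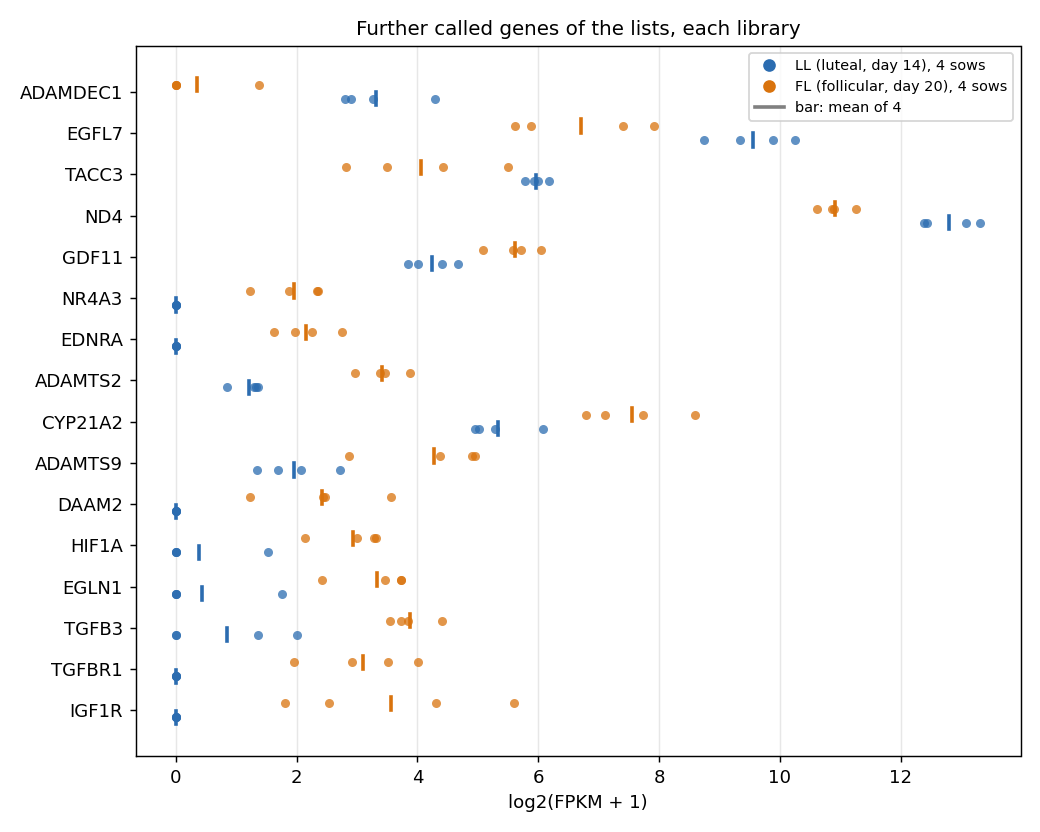
Values of 16 further list genes that were called, with log2(FPKM + 1) on the horizontal axis, 1 point per library, and a bar at each group mean (blue LL, orange FL, 4 sows each). The groups do not overlap for any of them, and most of the genes higher in FL lie at or near 0 in LL. Choice by adjusted p favours such separation, which 17.4% of all transcripts tested show.

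Cell division genes gave 1 call. TACC3, a spindle protein whose gene overlaps TMEM129, fell from 71.5, 59.8, 54.1 and 62.8 FPKM in LL to 20.4, 44.2, 10.3 and 6.04 FPKM in FL (log2 fold change -1.91, SE 0.55, adjusted p = 0.0448). No other of the 24 tested members was called, beside 1.15% of all transcripts called lower and 5.35% higher. The call of TACC3 held in 8 of 18 alternatives and was lost without each LL library and without FL1, FL3 or FL4. CDC20, which activates the anaphase-promoting complex, stood at 209 ± 26.8 FPKM in LL and 84.6 ± 26.9 in FL without overlap (adjusted p = 0.0863). NCAPH2, a condensin subunit, stood at 179 ± 29.5 and 95.4 ± 25.7 FPKM, also without overlap (adjusted p = 0.154). The median log2 fold change of the 24 was 0.92, and KIF23, a kinesin of cytokinesis, ran from 5.92 to 10.9 FPKM in LL and from 5.74 to 88.6 FPKM in FL.

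Mitochondrial transcripts took a large share of FPKM. ND4 fell from 5355, 10224, 5537 and 8679 FPKM in LL to 1571, 1874, 1900 and 2447 FPKM in FL (log2 fold change -1.90, SE 0.48, adjusted p = 0.0278), a call that held in 9 of 18 alternatives. ND6, whose gene overlaps ND5, stood at 359910, 161030, 288160 and 138320 FPKM in LL and at 105150, 96514, 78872 and 109500 FPKM in FL without overlap, but missed the threshold (log2 fold change -1.18, SE 0.41, adjusted p = 0.0847). As a share of all FPKM, ND6 took 34.4% ± 11.04 in LL and 17.5% ± 2.13 in FL (SD, n = 4 each; exact permutation p = 0.0286, adjusted p = 0.0286). ND4 was the only member called of 12 tested, beside 1.15% of all transcripts called lower and 5.35% higher. The list's median log2 fold change was 0.81, and ATP5S, a factor of ATP synthase coupling, averaged 125 ± 56.3 FPKM in LL and 362 ± 203 in FL (adjusted p = 0.0875).

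None of the 10 tested macrophage and lymphocyte genes was called, but their median log2 fold change was 1.29, and the summed level of the 42 paired members ran from 462 to 618 FPKM in LL and from 1005 to 1319 FPKM in FL. FCAR, an Fc receptor for IgA, made up much of that sum, at 226 ± 78.8 FPKM in LL and 528 ± 47.3 in FL without overlap (adjusted p = 0.0616). CD300LG, a receptor of vessel endothelium, was next at 129 ± 40.2 and 300 ± 40.5 FPKM (adjusted p = 0.05, above the threshold before rounding). The defining markers CD53, C1QA, MSR1 and CD209 were at 0 in all 8 libraries, as were 11 of the 42 members. Smooth muscle and epithelium genes gave no call among 5 tested, with a median of 0.55. PAX8, a factor of reproductive tract epithelium, was at 0 in LL except for 6.18 FPKM in LL4 and at 25.8, 35.2, 4.39 and 25.8 FPKM in FL, with overlap (adjusted p = 0.0604). No oocyte gene passed the filter, and the part of any of these cells in the results was not tested.

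**Figure D3:**
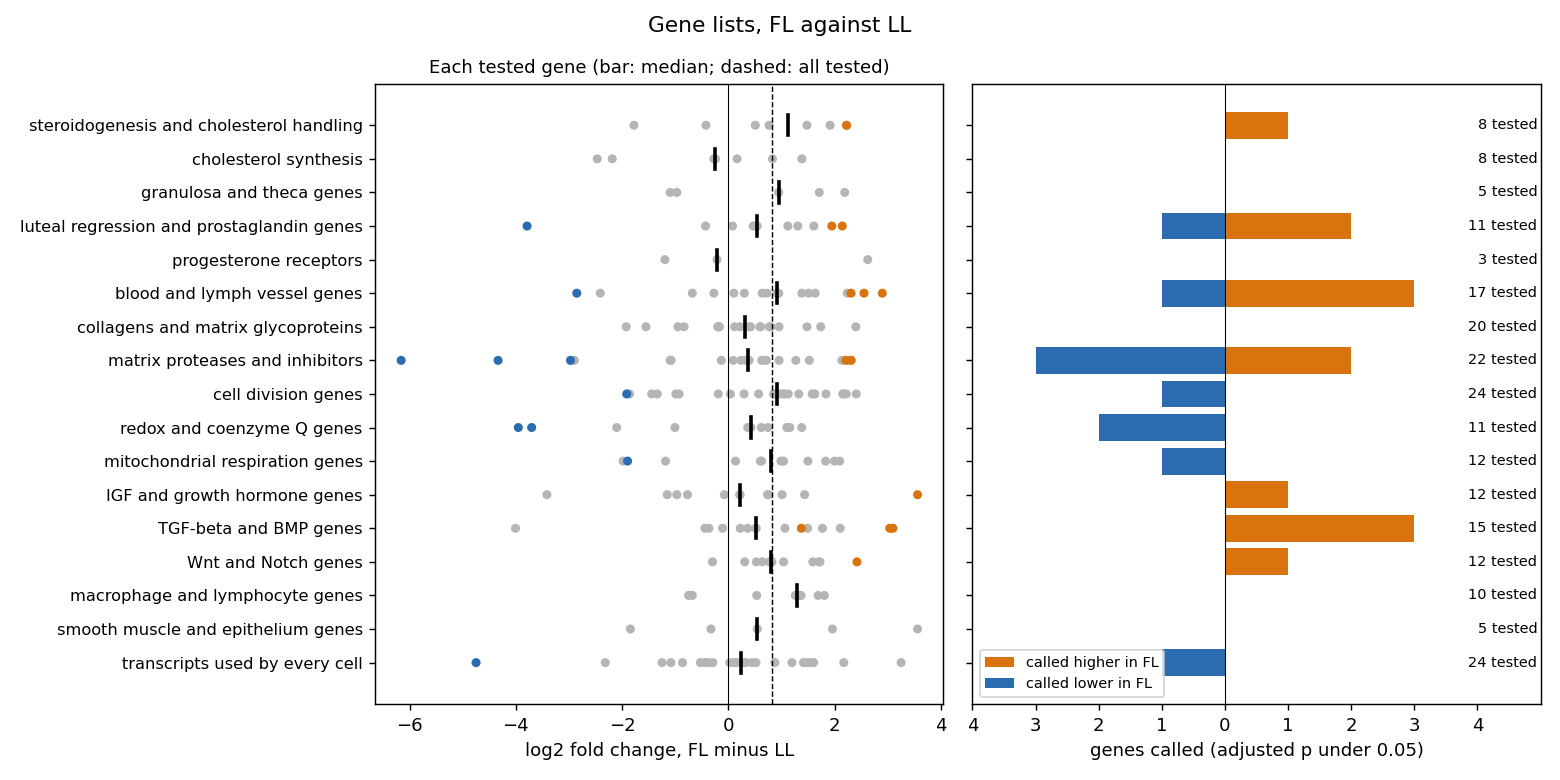
Gene lists in FL against LL. On the left each point is the log2 fold change of 1 tested gene (orange called higher, blue called lower, grey not called), the bar is the list's median and the dashed line the median of all transcripts, 0.82. On the right bars count the genes called in each direction, from 0 in the collagen and cholesterol synthesis lists to 5 of 22 matrix proteases and inhibitors. Of all transcripts tested 6.5% were called in either direction.

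Outside the lists, several of the most abundant transcripts with a symbol differed. GYS1, glycogen synthase of muscle and most other tissues, fell from 9991, 13817, 12605 and 11069 FPKM in LL to 6755, 2757, 4077 and 2194 FPKM in FL (log2 fold change -1.71, SE 0.35, adjusted p = 0.0107), and its call was lost without FL2 or FL4. FTL, the ferritin light chain next to GYS1, was at 21.6, 64.9, 7.68 and 39.3 FPKM in LL and at 0 in the whole of FL (adjusted p = 0.00185), on 18 fragments. It was the only call among 24 tested transcripts that every cell uses, beside 1.15% of all transcripts called lower and 5.35% higher. The median log2 fold change of the 24 was 0.23. PLPP5, a lipid phosphatase overlapping DDHD2, fell from 3030, 3533, 2764 and 1758 FPKM to 926, 730, 785 and 835 FPKM (log2 fold change -1.72, SE 0.33, adjusted p = 0.009). LSM1, which acts in decapping of mRNA, lies in the same stretch of the genome between BAG4, which it overlaps, and STAR, and fell from 328 ± 152 to 70.7 ± 16.03 FPKM (log2 fold change -2.10, SE 0.40, adjusted p = 0.00902).

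TMEM63A, an ion channel overlapping the epoxide hydrolase gene EPHX1, fell from 673, 870, 969 and 907 FPKM in LL to 111, 146, 52.8 and 204 FPKM in FL (log2 fold change -2.87, SE 0.61, adjusted p = 0.0136), and its adjusted p was 0.0541 without FL3. TCTN1, a protein of the ciliary transition zone overlapping the proton channel gene HVCN1, fell from 176 ± 29.0 to 16.9 ± 12.5 FPKM (adjusted p = 0.00522). PIK3IP1, an inhibitor of phosphoinositide 3-kinase, fell from 121 ± 51.1 to 22.3 ± 10.4 FPKM (adjusted p = 0.0101). SLAIN2, a microtubule plus-end protein, and SLC35F5, a solute carrier, were lower on 30 and 10 fragments in LL, at 19.0 and 7.22 FPKM on average against 1.45 and 0 in FL. Without a symbol, ENSSSCT00000022831 fell from 2424, 2219, 2060 and 1440 FPKM to 183, 126, 105 and 81.5 FPKM (log2 fold change -4.07, SE 0.56, adjusted p = 0.000741). ENSSSCT00000011384 was at 721, 574, 273 and 406 FPKM in LL and at 0 in every FL library (adjusted p = 0.00185).

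**Figure D4:**
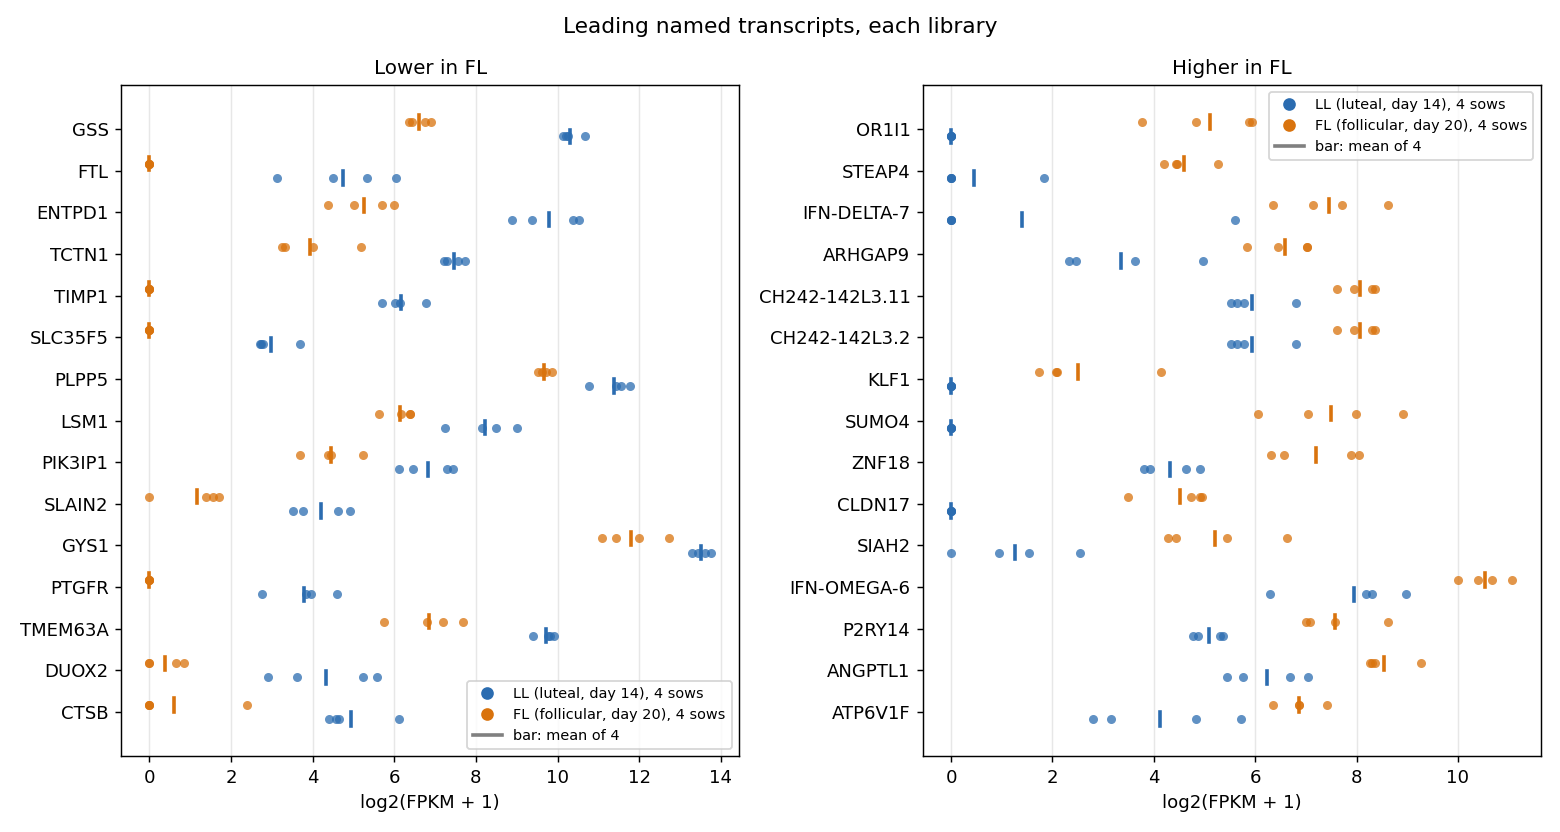
Values of the 15 transcripts per direction with a symbol that had the smallest p, with log2(FPKM + 1) on the horizontal axis, 1 point per library and a bar at each group mean (blue LL, orange FL, 4 sows each). No transcript shows an overlap of the groups, and 4 of those higher in FL were at 0 in all LL libraries, as were 4 of those lower in FL in all FL libraries. Choice by smallest p favours such separation. It holds for 299 of the 325 called higher, 67 of the 70 called lower and 17.4% of all transcripts tested.

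Of the other transcripts with a symbol that rose, ARHGAP9, ZNF18, SIAH2, STEAP4 and ATP6V1F kept an adjusted p under 0.05 in all 18 alternatives. ARHGAP9, a GTPase-activating protein of blood cells whose gene overlaps GLI1, rose from 4.03, 4.54, 11.4 and 30.5 FPKM in LL to 86.3, 129, 128 and 56.2 FPKM in FL (log2 fold change 3.23, SE 0.52, adjusted p = 0.00294). ZNF18, a zinc finger protein whose gene overlaps DNAH9, rose from 13.01, 14.2, 23.9 and 28.96 FPKM to 78.8, 236, 93.5 and 264 FPKM (log2 fold change 2.89, SE 0.53, adjusted p = 0.00792). SIAH2, a ubiquitin ligase of the hypoxia response, rose from 1.91 ± 2.08 to 44.8 ± 36.9 FPKM (log2 fold change 3.94, SE 0.73, adjusted p = 0.00792). STEAP4, a metalloreductase for iron and copper, was at 0 in LL except for 2.58 FPKM in LL4 and at 20.6, 17.3, 20.9 and 37.7 FPKM in FL (log2 fold change 4.13, SE 0.61, adjusted p = 0.00146), on 49 fragments in FL. ATP6V1F, a subunit of the vacuolar proton pump, rose from 23.2 ± 21.2 to 120 ± 37.3 FPKM (adjusted p = 0.0101).

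Several transcripts rose from 0, where few fragments decide a value. SUMO4, a small ubiquitin-like modifier of 282 nt whose gene overlaps ATP6V0A2, was at 0 throughout LL and at 252, 132, 479 and 65.3 FPKM in FL (adjusted p = 0.00597). The olfactory receptor OR1I1 was at 0 throughout LL and at 27.6, 12.6, 60.1 and 58.0 FPKM in FL (adjusted p = 0.00033), on 28 fragments. The tight junction protein CLDN17 and the erythroid factor KLF1 were at 0 in LL as well and rested on 11 and 9 fragments in FL (adjusted p = 0.00792 and 0.00499). KLF1 lost its call with limma voom on recovered fragments, without the filter and with quantile normalization. A pair of transcripts, CH242-142L3.11 and CH242-142L3.2, held identical values and count as 1 measurement, which rose from 64.8 ± 31.4 to 272 ± 62.7 FPKM (log2 fold change 2.12, SE 0.36, adjusted p = 0.00424). Identical values in all 16 libraries were found for 104 of the transcripts tested, 20 of them called. Without a symbol, ENSSSCT00000007316 was at 0 in LL and at 24.4 to 77.9 FPKM in FL (adjusted p = 0.000172). ENSSSCT00000007669 rose from at most 3.98 FPKM in LL to at least 27.0 FPKM in FL (log2 fold change 4.99, SE 0.59, adjusted p = 0.00018), and ENSSSCT00000028581 from at most 7.65 to at least 30.9 FPKM (log2 fold change 4.81, SE 0.70, adjusted p = 0.00146).

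Type I interferon genes, antiviral cytokines that form a cluster of near-identical copies in the pig, were described as a family after their values were seen. The 9 tested transcripts of the family hold 8 distinct sets of values in LL and FL, since IFN-OMEGA-7 and IFN-OMEGA-2 are equal there. Of these 8 measurements 3 were called higher and none lower, beside 5.35% and 1.15% of all transcripts, with a median log2 fold change of 1.65. IFN-OMEGA-6 rose from 313, 77.4, 503 and 292 FPKM in LL to 1343, 2158, 1022 and 1624 FPKM in FL (log2 fold change 2.59, SE 0.49, adjusted p = 0.00891). IFN-DELTA-7 was at 0 in LL except for 47.2 FPKM in LL2 and at 140, 208, 80.5 and 391 FPKM in FL (adjusted p = 0.00294), and IFN-ALPHA-8 at 0 throughout LL and at 46.5, 26.4, 21.4 and 102 FPKM in FL (adjusted p = 0.0101). The 3 tested transcripts of IFN-ALPHA-17 went both ways, with log2 fold changes of 1.79, -1.35 and -2.57, none of them called. Reads of such copies can be split between them, so that single members are uncertain.

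Some of the most abundant transcripts with a symbol were not called. ITPKC, an inositol trisphosphate kinase, stood at 6223 ± 1378 FPKM in LL and 9284 ± 1022 in FL without overlap (log2 fold change 0.60, adjusted p = 0.144). KL, the co-receptor Klotho, stood at 5095 ± 848 and 7644 ± 834 FPKM, also without overlap (log2 fold change 0.60, adjusted p = 0.128). CAND2, which exchanges cullin ligases, stood at 1345 ± 339 and 1270 ± 445 FPKM with overlap (adjusted p = 0.84). PHOSPHO2, a phosphatase, was at 742 to 1178 FPKM in LL and 1361 to 2222 FPKM in FL (adjusted p = 0.0999).

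The high-fecundity sows gave the same contrast in libraries that took no part in FL or LL. There 1 transcript (0.0165%) differed between FH and LH at an adjusted p under 0.05, ENSSSCT00000007316, which was also the leading call in the low-fecundity sows. Of the 325 transcripts called higher in FL, 249 or 76.6% had a positive log2 fold change of FH minus LH, against 67.7% of all transcripts tested. Of the 70 called lower, 59 or 84.3% had a negative one, against 32.2% of all. The sizes were smaller, with median log2 fold changes of 0.54 for FH minus LH against 2.80 for FL minus LL among the transcripts called higher, and of -0.61 against -2.95 among those called lower. The FL minus LL values chose these transcripts, so that the larger sizes there are a description.

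Single genes showed this side by side. GSS had log2 fold changes of -3.70 in low-fecundity and -1.50 in high-fecundity sows, TIMP1 of -6.16 and -3.17, and DUOX2 of -3.95 and -1.18. ENTPD1 and GYS1 fell by 4.53 and 1.71 on the log2 scale in low-fecundity sows and had values of -0.09 and 0.06 in high-fecundity sows. Tested directly, the difference between the log2 fold changes of the low and high-fecundity sows passed an adjusted p under 0.05 for 4 of 6076 transcripts (0.0658%), and 545 had an unadjusted p under 0.05. It did not pass for GSS (adjusted p = 0.31), ENTPD1 (0.12), GYS1 (0.27) or PTGFR (0.29), so that a difference between the sets of sows was not shown for them. It passed for FTL (adjusted p = 0.0433) and IFN-ALPHA-8 (0.0217). FTL was at 4.93 to 32.2 FPKM in FH and 4.61 to 16.7 FPKM in LH, with 0 throughout FL. IFN-ALPHA-8 was at 0 throughout FH and at 37.5, 61.8, 0 and 112 FPKM in LH, the reverse of FL and LL.

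**Figure D5:**
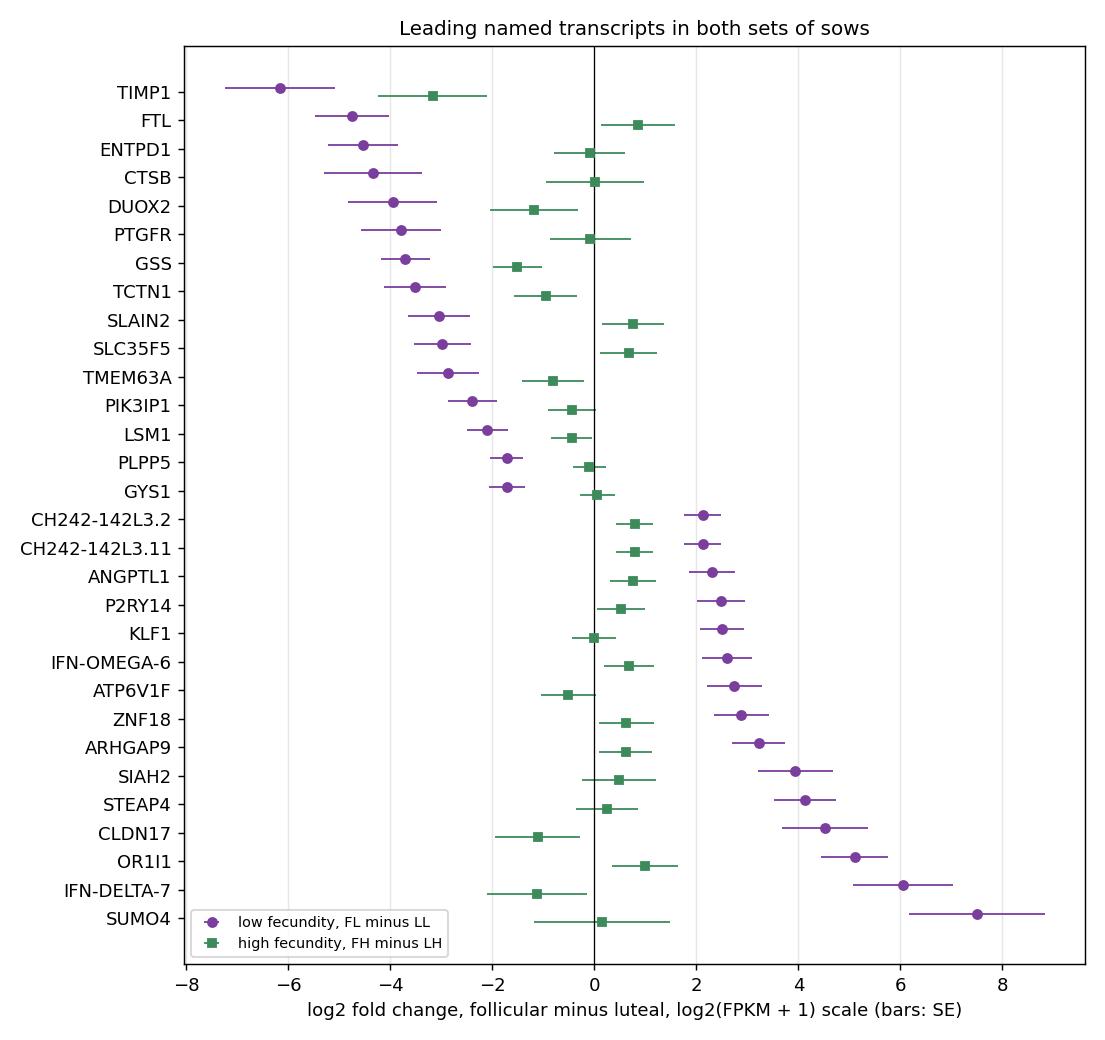
Log2 fold changes of follicular minus luteal ovary for the 30 leading transcripts with a symbol, with circles for low-fecundity sows (FL minus LL), squares for high-fecundity sows (FH minus LH) and bars for the standard error. The transcripts were chosen by the circles, and most squares lie nearer to 0, with TIMP1 at -3.17.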

How the data were processed

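Ovarian RNA of 16 sows was read in pairs from rRNA-depleted, strand-specific libraries. The authors deposited FPKM per transcript, computed with RSEM after mapping to Sscrofa10.2, rounded to 2 decimals. The submitters' processing notes also name HISAT2 2.0.1, StringTie 1.0.4 and DESeq2 1.6.3. Groups follow the sample titles. Fragment depth was recovered from transcripts over 1500 nt, whose low FPKM values gave whole fragments (within 0.05) for 91.9% to 93.7% of those examined. Values after ± are standard deviations over the sows of a group, and SE is the standard error of the limma fit. Both include the variation between animals.

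Transcripts were tested on log2(FPKM + 1) by limma (version 3.58.1, run under R 4.3.3), a scale that understates changes of low transcripts: 1 fit of 4 group means on 16 libraries, trended moderated variances, two-sided p, Benjamini-Hochberg adjustment over the 6076 transcripts. Tests on simulated data at the real depths recovered only a part of the changed transcripts, fewer at the larger spread and all with the right sign, and false calls exceeded the nominal share and were mostly transcripts at 0 in a whole group. Library measures used exact permutation tests (scipy 1.17.1). Tables and plots were made by pandas 2.3.3, matplotlib 3.10.9 and numpy 2.4.6 under Python 3.11.15.

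Symbols came from the study's own lists, which pair transcripts with names, and a gene name table (3847 of 27370 transcripts matched), for names only. The authors' lists of differential transcripts also hold their fold changes and p-values, which were not used. Presence in the lists nevertheless decided which transcripts could be paired with a symbol. Each gene was taken at its transcript with the highest mean. Named were, per direction, up to 15 transcripts with a symbol, an adjusted p under 0.05 and a higher-group mean of at least 1 FPKM and the 5 of smallest p, the called and the 3 most abundant members of 18 gene lists, the 8 most abundant with a symbol, and 3 per direction for the difference between sets of sows. The genes COL1A2, COL3A1, TIMP2, FDPS, MSTN, KIF23, FOXL2, PECAM1, TIE1, STAB1, DUOX1, NOX4, DUOXA1, P2RY12 and the interferons fall outside this rule and were named after their values were seen. Of the list members that the rule names for their level alone, 41 were tested and not called (log2 fold changes from -3.41 to 3.56), and those not described singly enter the counts and medians. Members and lists were chosen with earlier results of these data known. Alternatives were other pseudocounts, filters, scalings, variance models, a replicate block and leaving out each library. Overlaps between genes were read from RefSeq names and order in Sscrofa11.1, another assembly, so no positions are given.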

Additional observations from a re-analysis of the deposited data

Results flagged for a closer look

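In 13 of 93 groups of 4 values examined among the called transcripts that the report names, 1 library stood apart from the other 3 by Dixon's criterion, where chance gives about 1 in 20 for continuous values. In 7 of the 13 the other 3 values were 0, so that any fragment in 1 library sets it apart and that rate does not apply. The library apart was LL4 for STEAP4 (2.58 FPKM), SLC35F5 (11.87 FPKM) and ENSSSCT00000028581 (7.65 FPKM). It was LL2 for IFN-DELTA-7 (47.24 FPKM) and HIF1A (1.88 FPKM), LL3 for EGLN1 (2.37 FPKM) and ADAMTS2 (0.79 FPKM), and LL1 for CTSB (67.93 FPKM). In FL it was FL3 for KLF1 (16.74 FPKM), CTSB (4.21 FPKM) and ADAMDEC1 (1.6 FPKM), FL2 for ANGPTL1 (617.8 FPKM) and FL4 for CLDN17 (10.22 FPKM).

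The difference of FL minus LL against FH minus LH passed the adjusted threshold for 4 transcripts (limma, over 6076). It was -5.60 for FTL (adjusted p = 0.0433), 9.89 for IFN-ALPHA-8 (0.0217), 6.58 for ENSSSCT00000006117 (0.024) and 3.22 for ENSSSCT00000010326 (0.0221), on the log2 scale. The last was above 0 only in FL, on 3 fragments, and its FL minus LL call was lost with limma voom. ENSSSCT00000006117 was above 0 in FL and in 3 of the LH libraries, at 6.28 to 19.1 FPKM.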

How the results depend on the processing

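The 395 calls of FL against LL, 325 higher and 70 lower, moved with the filter, the scaling, the model and single libraries. Without the filter 77 passed (53 higher, 24 lower) and the difference between the sets of sows passed for 0 transcripts. Median-ratio scaling gave 257 (142 and 115), and quantile normalization 182 (80 and 102), with 976 at the study's criterion and 1 for the difference. Relative to the median change, 50 were higher and 244 lower, with 965 at the study's criterion and 2 for the difference. With limma voom on recovered fragments 646 passed (537 and 109), with 9 for the difference, and with only the 8 LL and FL libraries 602 (496 and 106). Leaving out each LL or FL library in turn gave 67 to 335 calls, 36 to 289 higher and 17 to 46 lower. Over all libraries left out, the count ran from 67 to 618, higher calls from 36 to 508 and lower from 17 to 110, and the difference passed for 0 to 15 transcripts. The cause of these moves was not tested beyond the filter, which a transcript at the minimum in 4 libraries of a group alone cannot pass once 1 of them is left out.

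The replicate numbers name different sows, and same-numbered LL and FL libraries did not deviate together (r over transcripts from -0.0572 to 0.00271, and no LL library was nearest to its own number). With the replicate block 330 passed, 263 higher and 67 lower, of which 240 and 65 were among the 395, and the difference passed for 1 transcript.

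All 55 named and called transcripts kept their direction under every alternative in which they could be tested, and 29 kept an adjusted p under 0.05 in each. They were chosen for a low adjusted p, and their groups did not overlap. Leaving out a library therefore could not turn a direction, and the kept directions are no sign of strength. Of 1727 values of named transcripts under alternatives, 1531 stayed on their side of the threshold, 165 lost a call and 31 gained one. Among values with a call in the main fit or in the alternative, 0 turned direction. Some without a call did, such as GATA6, whose log2 fold change ran from -0.0561 to 2.37 under the alternatives.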
